A study of Homo sapiens with 4 samples.

Results

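Ribosomes are built in the nucleolus, and the 39 genes described here encode the machinery that does it. They were taken as a named list of nucleolar and ribosome assembly genes. The rule used no value of these arrays, but the list was drawn up with earlier results of these data known. The list is set against 20046 genes that could be named on the array. Of the 39 genes, 35 had a named probe, 34 were detected on at least 1 array and 33 on all 4. GNL3, WDR43, EBNA1BP2 and DDX18 had no named probe and were not analysed here, and the single NPM1 probe, for a protein that is among the most abundant of the nucleolus, was not detected on any array.

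RNA polymerase I copies the ribosomal DNA into a long precursor RNA, which is modified at many positions by ribonucleoproteins guided by small nucleolar RNAs (snoRNPs), cut into its mature pieces and folded with ribosomal proteins. The box C/D snoRNPs methylate riboses, and the box H/ACA snoRNPs turn uridine into pseudouridine. Pre-40S and pre-60S particles then mature along separate routes. The genes of this machinery are widely used as a readout of cell growth, and many are known targets of MYC. GSK3, the kinase that CHIR99021 inhibits, marks β-catenin for destruction, and it also phosphorylates MYC, which shortens the life of the MYC protein.

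Transcript levels came from HuES6, an established line of human embryonic stem cells (hESCs), and were read on Illumina HumanHT-12 V4 bead arrays. Cells were exposed for 4 h to 20 ng/ml BMP4 together with 5 µM CHIR99021, to 5 µM CHIR99021 alone, to 20 ng/ml BMP4 alone, or were left untreated, and in all 4 groups the medium was supplemented with FGF2 (20 ng/ml) as well as Activin A (5 ng/ml). The comparisons address early responses to BMP and to canonical WNT signaling. There was 1 array per group, so no difference has a replicate check, no error or p-value could be computed, and the sources used here do not say whether the wells came from separate cultures.

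Each array detected 15980 to 16762 probes at a detection p below 0.01. All 9 measured stem cell markers, POU5F1 and NANOG among them, were detected on all 4 arrays, with summed intensities between 12896 and 13599. Single markers ran from -0.91 to 0.34 on the log2 scale for CHIR99021 against untreated, at a median of 0.04. Of 8 fibroblast markers, 5 were detected, and their summed intensity was 2489 with both treatments, 2804 with CHIR99021, 2946 with BMP4 and 3447 untreated. DCN, LUM and POSTN, 3 defining fibroblast genes, were not detected. Of 5 measured neural progenitor markers, 3 were detected and PAX6 and SOX1 were not, and the summed intensity was 1835, 2231, 2811 and 2340 in the same order of groups. The part of the fibroblast and neural markers in the differences below was not tested, and fewer cells of a type and less RNA per cell cannot be told apart in such samples. The treatments themselves registered. AXIN2, a feedback inhibitor of canonical WNT signaling, was 5.28-fold higher with CHIR99021 than in untreated cells, and all 5 WNT response genes were detected on both arrays with CHIR99021. All 5 BMP response genes, ID1 and ID3 among them, were higher by at least 1 on the log2 scale with BMP4 than in untreated cells.

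CHIR99021 was accompanied by higher levels of most of the nucleolar genes. Against untreated cells, 26 of 33 measured genes (78.8%) were higher with CHIR99021, where 48.4% of all 10747 detected genes were. Their median log2 difference was 0.29, or 1.22-fold, against -0.01 for all detected genes. Shifts of this size are small for single probes. Only 5 nucleolar genes were higher by at least 0.5 (6.01% of all detected genes), none was lower by as much (8.1% of all detected genes), and NOP16 alone was higher by at least 1 (0.335% of all detected genes). In the presence of BMP4, where no array is shared with the first comparison, 28 of 34 genes (82.4%) were higher with both treatments than with BMP4 alone, against 49.9% of detected genes. The median was 0.27, or 1.2-fold, and 5 genes were higher by at least 0.5 and none lower (5.2% and 5.97% of all detected genes). That count of 5 was 3 with an offset of 50 and 2 without background correction. The nucleolar genes were brighter than the average gene, with a median mean log2 intensity of 8.4 against 6.99. Among the 3612 detected genes in the middle intensity range of the list, between 7.34 and 9.81, the median difference was 0.00 in both comparisons, and 49.5% were higher with CHIR99021 than untreated.

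**Figure D1:**
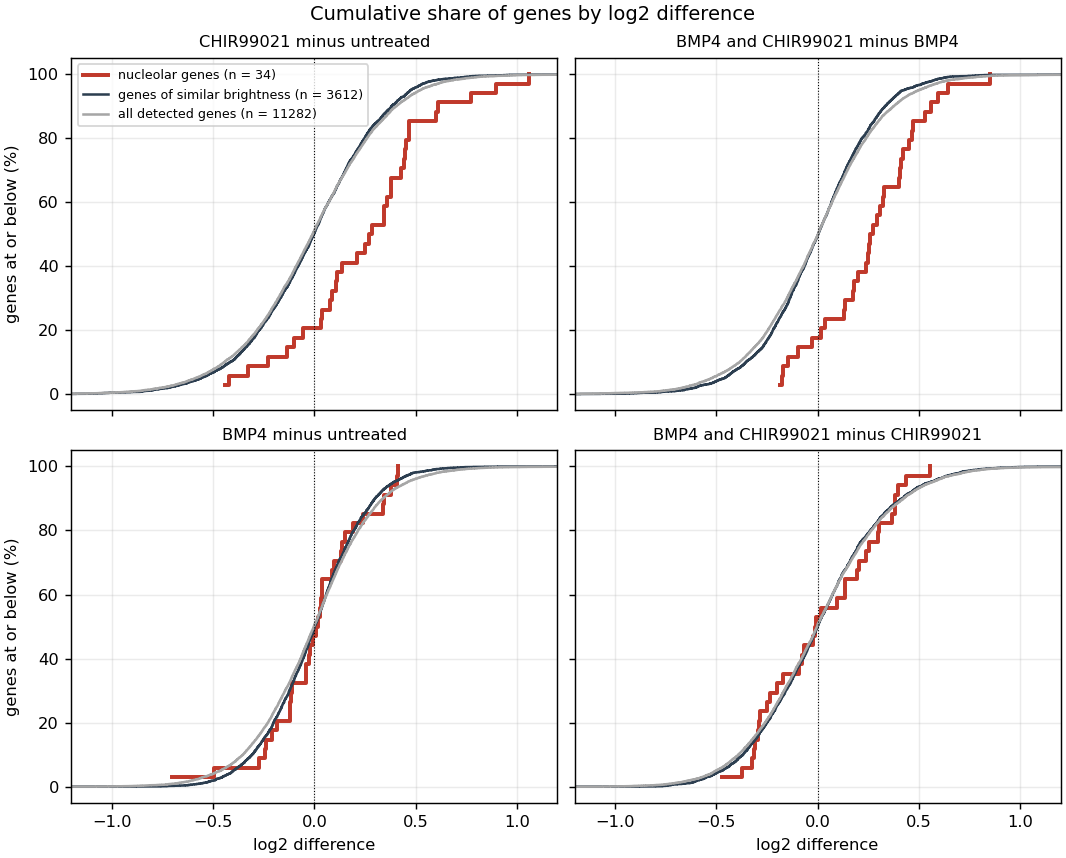
Cumulative share of genes (y axis, %) by log2 difference (x axis) for the 34 detected nucleolar genes (red), 3612 detected genes in their middle intensity range (dark blue) and all 11282 detected genes (grey), in 4 comparisons with 1 array on each side. In both upper panels, where CHIR99021 was added, the red curve lies to the right, with medians of 0.29 over the 33 genes measured there and 0.27, and in the lower panels, where BMP4 was added, the curves run together.

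With BMP4, the median of the list lay where that of all genes did, and the share of its genes that were higher was near that of all genes. Against untreated cells, 18 of 34 genes (52.9%) were higher with BMP4, against 49.5% of all detected genes, and the median difference was 0.01. No nucleolar gene was higher by 0.5 (4% of all detected genes), and RRP9 alone was lower by that size (4.12% of all detected genes), with NOB1 just short of it at a rounded -0.50. On top of CHIR99021, 16 of 34 genes (47.1%) were higher with both treatments, against 49.7%, with a median of -0.01, NOP58 alone higher by at least 0.5 and none lower (7.22% and 5.32% of all detected genes). With both treatments against untreated cells, 28 of 34 genes were higher (48.6% of all detected genes), the median was 0.23, or 1.17-fold, and 6 genes (POLR1C, TSR1, NOP2, NOP16, NIP7 and BOP1) were higher by at least 0.5 and none lower (7.3% and 8.49% of all detected genes).

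Seen array by array, 18 of the 34 genes reached their highest level with CHIR99021 alone, 11 with both treatments, 3 with BMP4 alone and 2 in untreated cells. Over all detected genes these shares were closer together, with 26.9% highest with CHIR99021, 25.2% with both, 21.6% with BMP4 and 26.3% untreated. For 20 nucleolar genes, both arrays with CHIR99021 lay above both arrays without it, a pattern that 19.3% of all detected genes showed. The reverse pattern, found for 20.6% of all detected genes, occurred in 0 of the 34. With BMP4, both arrays lay above the other arrays for 5 nucleolar genes and below them for 3, where 17.6% and 18% of all detected genes did so.

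**Figure D2:**
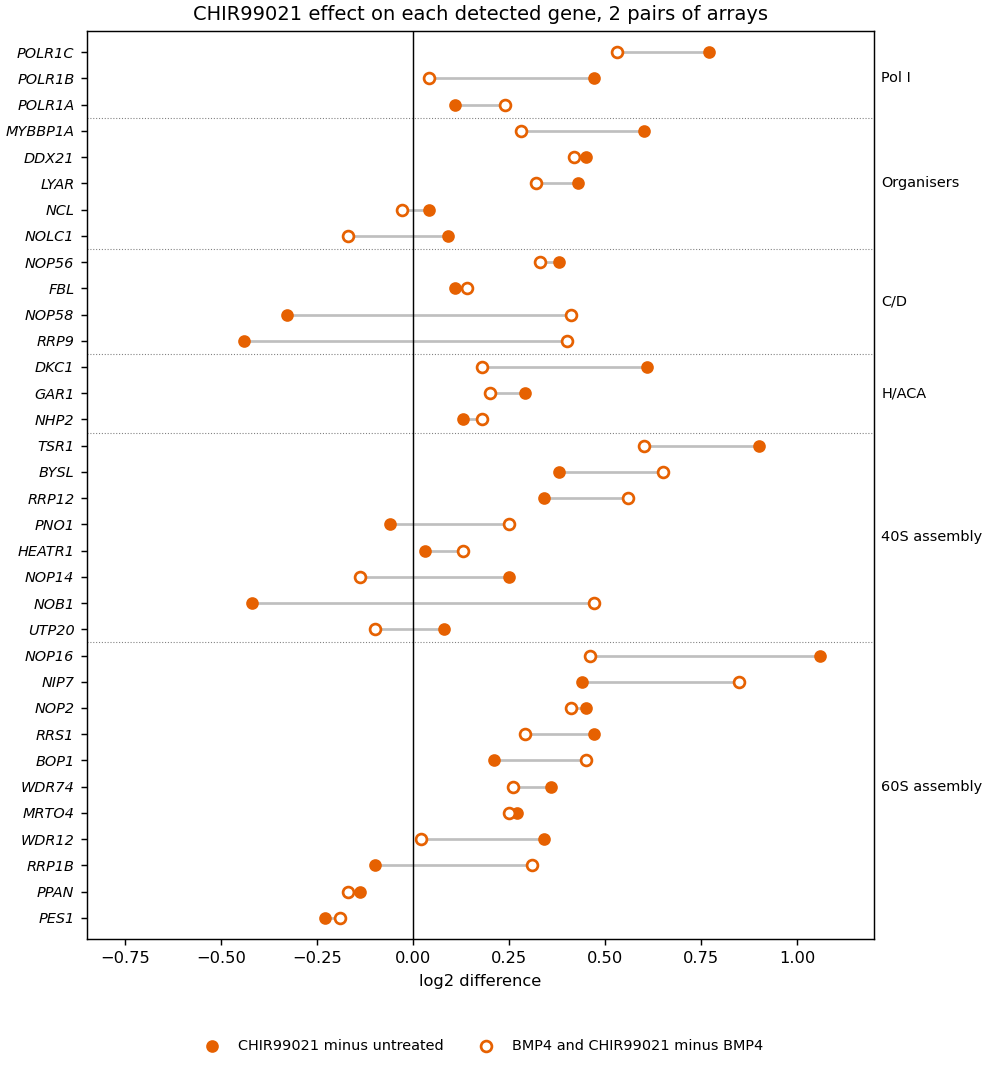
Log2 difference (x axis) of each of the 34 detected nucleolar genes for CHIR99021 minus untreated (filled) and for both treatments minus BMP4 (open), with 1 array on each side and genes grouped by role. Most pairs of points lie right of 0, and PES1 and PPAN lie left of it in both. For 9 genes, NOP58, RRP9 and NOB1 among them, the points lie on either side.

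The promoters of these genes share features that the list was not chosen on. RefSeq promoter windows, from 250 bases before to 50 bases after each start site in GRCh38.p14, were at hand for 32 of the 39 genes, in 41 windows. The E-box CACGTG, the core site of MYC and MAX, reads the same on both strands. It stood in 17 of the 41 windows (41.5%), against 9.28% of the 13323 windows of detected genes and 7.26% of all 35116 windows. The ETS core, CCGGAAG or CTTCCGG on the other strand, stood in 13 windows (31.7%), against 16.4% of windows of detected genes and 10.3% of all windows. The TCF/LEF site of the WNT pathway, ATCAAAG or CTTTGAT on the other strand, stood in the POLR1A window alone (2.44%), against 1.67% of windows of detected genes and 2.62% of all windows. The stretches that follow are those of genes on which the results below turn, 30 bases each, written 5′ to 3′ along the gene's strand with the motif in capitals. The first 4 hold ETS cores of genes with a high mean of the 2 CHIR99021 differences. The next 4 hold E-boxes of genes that were higher on both arrays with CHIR99021, and the last 3 hold a motif in genes that were not.
NOP16, ETS, chr5:176388596-176388625, minus strand: gtgcacgccttCCGGAAGgagtttgttaca
POLR1C, ETS, chr6:43516954-43516983, plus strand: aaaagcaacttCCGGAAGctggggacgtgg
TSR1, ETS, chr17:2336467-2336496, minus strand: cttggaggggaCCGGAAGcgcttgtcctgg
NIP7, ETS, chr16:69339566-69339595, plus strand: acgtcacttccCTTCCGGaccacaaggggc
BYSL, E-box, chr6:41921515-41921544, plus strand: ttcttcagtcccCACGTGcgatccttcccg
MYBBP1A, E-box, chr17:4555340-4555369, minus strand: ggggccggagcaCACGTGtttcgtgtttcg
DDX21, E-box, chr10:68956604-68956633, plus strand: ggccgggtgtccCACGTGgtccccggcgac
NOP2, E-box, chr12:6568242-6568271, minus strand: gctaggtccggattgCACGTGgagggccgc
PES1, E-box, chr22:30591880-30591909, minus strand: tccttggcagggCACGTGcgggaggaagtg
RRP9, E-box, chr3:51941892-51941921, minus strand: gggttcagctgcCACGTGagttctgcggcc
PPAN, ETS, chr19:10106319-10106348, plus strand: gctctcaggcgCCGGAAGtgagctgcgcag

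Within the windows, which end 50 bases after the start site, the E-boxes of the nucleolar genes mostly lay after that site. Of 17, 12 (70.6%) began at or after the annotated start site, within the first 50 transcribed bases, where 10.2% of the E-boxes in windows of detected genes did. In BYSL the E-box began 28 bases after the start, in MYBBP1A 27 bases and in PES1 13 bases, while in DDX21 it began 31 bases before it. The ETS cores of NOP16 and POLR1C are part of longer stretches that hold the core on both strands in overlap. Holding a CACGTG E-box in the window went with no larger CHIR99021 difference. Sites outside the window or with other letters were not searched, so genes counted as without an E-box may hold one elsewhere. The mean of the 2 CHIR99021 differences had a median of 0.24 over 13 genes with an E-box (10 of them above 0) and of 0.25 over 15 genes without one (14 above 0, where 49.6% of all detected genes were). With an ETS core it was 0.31 over 11 genes (9 above 0) and without one 0.18 over 17 genes (15 above 0). DDX21, FBL, RRP9 and GAR1 hold both motifs and are counted under each. A match of letters is a description of the window and shows no binding.

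The 3 listed subunits of RNA polymerase I were higher with CHIR99021 in both backgrounds. POLR1C, a subunit that polymerases I and III share, had log2 intensities of 9.12 with both treatments, 8.99 with CHIR99021, 8.59 with BMP4 and 8.21 untreated. On this probe its levels were higher with either treatment, and the array with both was the highest. With CHIR99021 it was 1.71-fold higher than in untreated cells and with both treatments 1.44-fold higher than with BMP4, and a dimmer probe of the same gene gave log2 differences of 0.96 and 0.68. For BMP4 against untreated that second POLR1C probe gave 0.03, and for both treatments against CHIR99021 it gave -0.25, with CHIR99021 alone highest. POLR1B, the second largest subunit, was at 5.65 with both, 5.94 with CHIR99021, 5.61 with BMP4 and 5.48 untreated, so that only the array with CHIR99021 alone stood apart, although a dimmer POLR1B probe gave 0.33 for both treatments against untreated. POLR1A, the largest subunit, was dim on all arrays, at 5.37, 5.12, 5.14 and 5.01 in the same order. Of 13 other polymerase I and ribosomal DNA factors, 7 were higher with CHIR99021 than untreated (median 0.05) and 10 with both than with BMP4 (median 0.25). Over all detected genes the shares were 48.4% and 49.9%. The polymerase I subunit POLR1F, outside the list, differed by -0.11 with CHIR99021 from untreated. RRN3, which joins the polymerase to its promoter factors, was at 7.42 with both, 7.32 with CHIR99021, 6.95 with BMP4 and 6.85 untreated, and TTF1, the transcription terminator, at 7.72, 7.72, 7.15 and 7.34. TAF1B, a subunit of the promoter factor SL1, went the other way, at 6.86, 6.33, 7.04 and 7.07.

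Of the 7 genes listed as organisers of the nucleolus or its granular component, 5 were measured, without NPM1 and GNL3. All 5 were higher with CHIR99021 than untreated (48.4% of all detected genes), at a median of 0.43, although NCL and NOLC1 by only 0.04 and 0.09. With both treatments, 3 of 5 were higher than with BMP4 (49.9% of all detected genes). With BMP4 added to CHIR99021, 0 of 5 were higher on the probes used (49.7% of all detected genes), at a median of -0.28. MYBBP1A, a nucleolar protein that binds the MYB factor and ribosomal precursor complexes, had log2 intensities of 6.40 with both, 6.68 with CHIR99021, 6.12 with BMP4 and 6.08 untreated. It was 1.51-fold higher with CHIR99021 than untreated, while the arrays with BMP4 alone and untreated lay close together. DDX21, an RNA helicase that couples polymerase I transcription to processing, was at 10.52, 10.76, 10.10 and 10.31 in the same order, and LYAR, a nucleolar zinc finger protein, at 9.26, 9.33, 8.93 and 8.90. Both genes had their arrays with CHIR99021 above the others. NCL, the abundant nucleolin, was at 11.27 with both, 11.58 with CHIR99021, 11.30 with BMP4 and 11.54 untreated, so that both arrays with BMP4 lay lowest, with log2 differences of -0.24 and -0.31 on adding BMP4. A dimmer NCL probe gave 0.20 and 0.06 for these differences and 0.41 with both against untreated, where the brighter one gave -0.27. NOLC1, a chaperone that shuttles snoRNPs to the nucleolus, was at 7.02, 7.39, 7.19 and 7.31, lowest with both treatments.

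**Figure D3:**
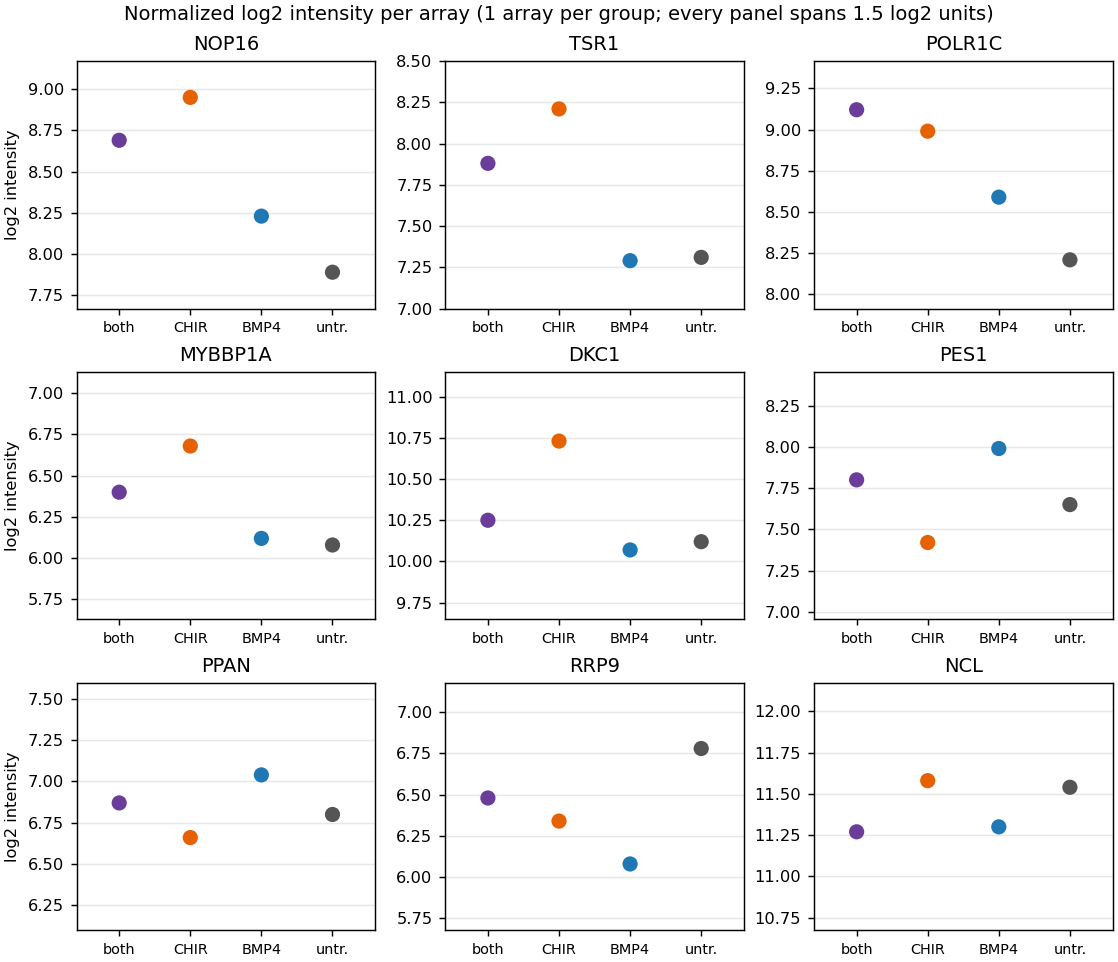
Normalized log2 intensity (y axis, each panel spanning 1.5 units) of 9 nucleolar genes on the 4 arrays, 1 point per array (both treatments, CHIR99021, BMP4, untreated). NOP16, TSR1, POLR1C, MYBBP1A and DKC1 were higher on both arrays with CHIR99021, PES1 and PPAN were highest with BMP4 alone, and RRP9 and NCL were lower with BMP4 alone than untreated.

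Among the box C/D snoRNP genes, the 4 members parted. FBL, the methyltransferase fibrillarin, differed by 0.11 with CHIR99021 and by 0.14 with both against BMP4, and NOP56, its core partner, by 0.38 and 0.33. NOP58, the other core partner, was at 10.53 with both, 9.97 with CHIR99021, 10.12 with BMP4 and 10.30 untreated. Either treatment alone thus left NOP58 below untreated cells, and both together left it above them. RRP9, which recognises the U3 snoRNA that guides the first cuts, was at 6.48 with both, 6.34 with CHIR99021, 6.08 with BMP4 and 6.78 untreated. It was 1.63-fold lower with BMP4 and 1.36-fold lower with CHIR99021 than in untreated cells, and 1.32-fold higher with both treatments than with BMP4. The size of the RRP9 value depends on background correction, since without it the difference between BMP4 and untreated cells was -0.35 in place of -0.71.

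On the probes used, all 3 listed box H/ACA snoRNP genes were higher on adding CHIR99021 in either background, and lower on adding BMP4 to it. DKC1, the pseudouridine synthase dyskerin, had log2 intensities of 10.25 with both, 10.73 with CHIR99021, 10.07 with BMP4 and 10.12 untreated. The array with CHIR99021 alone stood 0.61 above untreated cells, or 1.53-fold, and 0.47 above the array with both treatments. NHP2 and GAR1, the partners of dyskerin, differed by 0.13 and 0.29 with CHIR99021 against untreated cells. The 4 GAR1 probes ran from -0.02 to 0.58 for that difference, and the 4 NHP2 probes from -0.33 to 0.32 for both treatments against untreated cells. For BMP4 against untreated cells, the GAR1 probes ran from -0.33 to 0.27. A dimmer NHP2 probe gave -0.11 for CHIR99021 against untreated and -0.13 for both treatments against BMP4. A dimmer GAR1 probe gave 0.25 for both treatments against CHIR99021.

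For the small subunit, 5 of 7 measured assembly genes were higher with CHIR99021 than untreated (median 0.25), against 48.4% of all detected genes. With both treatments, 6 of 8 were higher than with BMP4 (median 0.36), against 49.9%. TSR1, a GTPase-like factor of late pre-40S particles, was at 7.88 with both, 8.21 with CHIR99021, 7.29 with BMP4 and 7.31 untreated. It was 1.86-fold higher with CHIR99021 than untreated and 1.51-fold higher with both than with BMP4, whereas BMP4 alone and untreated differed by -0.02. BYSL, or bystin, which acts in pre-40S maturation, was at 8.62 with both, 8.63 with CHIR99021, 7.98 with BMP4 and 8.25 untreated, and RRP12, in yeast an export factor of both subunits, at 7.87, 7.77, 7.31 and 7.43. On top of BMP4, they were 1.56-fold and 1.47-fold higher with CHIR99021. NOB1, the nuclease that makes the final cut of 18S RNA, was at 7.64 with both, 7.25 with CHIR99021, 7.17 with BMP4 and 7.67 untreated, so that it was below untreated cells with each treatment alone, and differed from them by -0.03 with both. Its partner PNO1 differed by -0.06 with CHIR99021 and by -0.01 with BMP4, and by 0.25 with both against untreated cells. HEATR1 and NOP14, of the early processome, differed by 0.03 and 0.25 with CHIR99021. A second NOP14 probe gave 0.57 for both treatments against BMP4, where the brighter probe gave -0.14. UTP20, a large scaffold of the processome, was detected only with both treatments, at 5.00, and with BMP4, at 5.10, and lay below detection at 4.76 with CHIR99021 and at 4.68 untreated. On these values it was at least 1.12-fold higher with BMP4 than untreated, a bound taken from the lowest value that passed detection on the untreated array. That bound carries no error estimate, and the other UTP20 probes were not detected on any array.

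For the large subunit, 8 of 11 measured genes were higher with CHIR99021 than untreated (median 0.34), against 48.4% of all detected genes. With both treatments, 9 of 11 were higher than with BMP4 (median 0.29), against 49.9%. With both treatments, 11 of 11 were higher than untreated (median 0.28), against 48.6%. NOP16, a nucleolar protein of pre-60S particles, had the highest CHIR99021 difference on the list. Its log2 intensities were 8.69 with both, 8.95 with CHIR99021, 8.23 with BMP4 and 7.89 untreated, so that on this probe every treated array lay above the untreated one. It was 2.08-fold higher with CHIR99021 than untreated and 1.38-fold higher with both than with BMP4, and its second probe gave log2 differences of 1.05 and 0.76. For BMP4 against untreated the second NOP16 probe gave -0.08, where the brighter one gave 0.34. NIP7, in yeast a factor of large subunit RNA processing, was at 9.55 with both, 9.17 with CHIR99021, 8.70 with BMP4 and 8.73 untreated. It was picked here after its values were seen, as the gene with the highest difference between both treatments and BMP4, 1.8-fold.

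NOP2, an RNA methyltransferase of the 28S RNA that is known as a proliferation antigen, was higher with either treatment on its brightest probe, at 10.25 with both, 9.88 with CHIR99021, 9.84 with BMP4 and 9.43 untreated. That probe was 1.37-fold higher with CHIR99021, 1.33-fold with BMP4 and 1.76-fold with both than in untreated cells. The other 2 detected NOP2 probes gave 0.91 and 0.35 for CHIR99021 against untreated cells, but 0.48 and -0.33 for BMP4, so the BMP4 difference of NOP2 rests on the probe chosen.

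PES1, BOP1 and WDR12 encode the 3 proteins of 1 complex, PeBoW, which is required for processing of the large subunit RNA, and on these arrays their patterns parted. PES1 was at 7.80 with both, 7.42 with CHIR99021, 7.99 with BMP4 and 7.65 untreated, with the lowest mean of the 2 CHIR99021 differences on the list, -0.21, and higher levels on both arrays with BMP4. BOP1 was at 10.72, 10.29, 10.27 and 10.08 in the same order, higher with each treatment and highest with both. WDR12 was at 9.01, 9.30, 8.99 and 8.96, with only the array of CHIR99021 alone above the rest, although a dimmer WDR12 probe gave 0.24 for both treatments against untreated. PPAN, a further factor of the large subunit, resembled PES1, at 6.87 with both, 6.66 with CHIR99021, 7.04 with BMP4 and 6.80 untreated. The remaining genes of the group, RRS1, WDR74, MRTO4 and RRP1B, differed with CHIR99021 from untreated cells by 0.47, 0.36, 0.27 and -0.10, and all 4 were higher with both treatments than with BMP4.

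**Figure D4:**
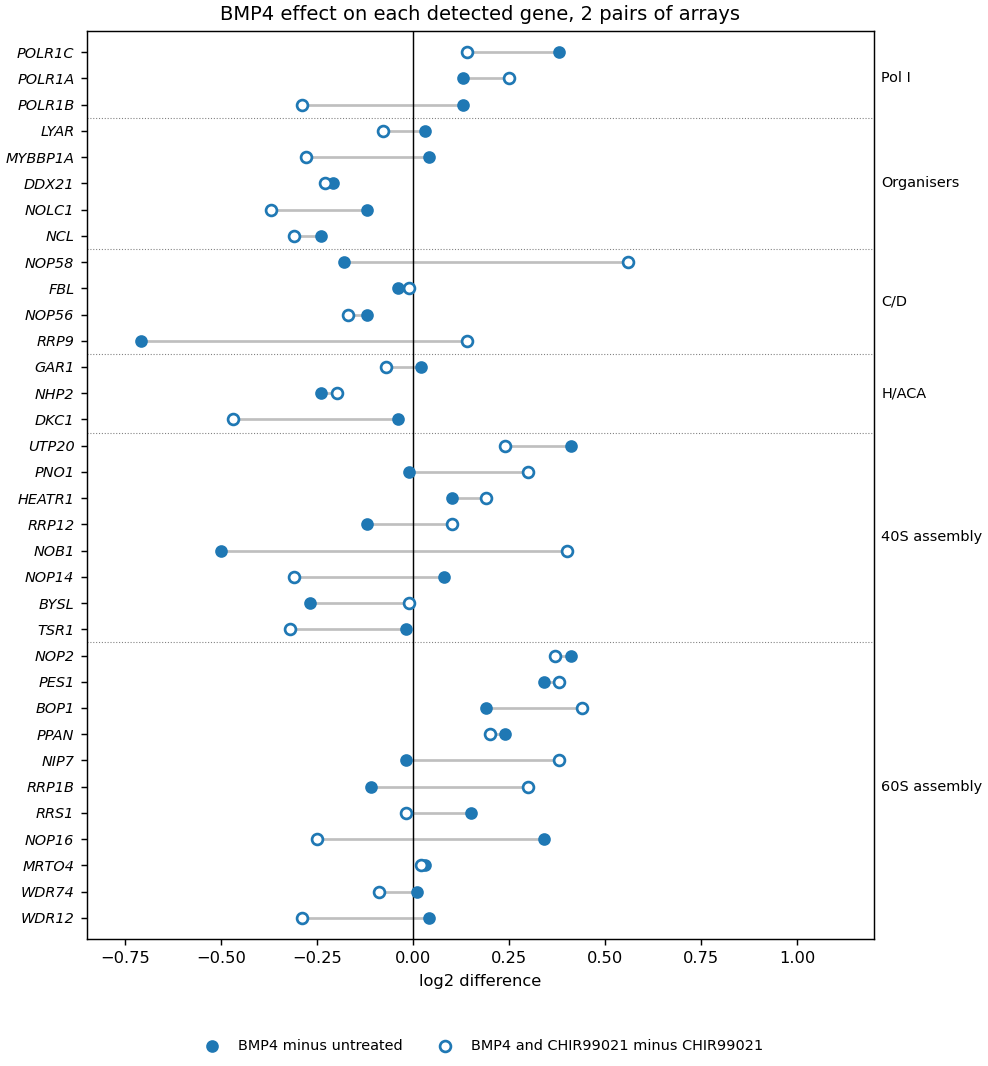
Log2 difference (x axis) of each of the 34 detected nucleolar genes for BMP4 minus untreated (filled) and for both treatments minus CHIR99021 (open), with 1 array on each side and genes grouped by role. The points fall on either side of 0, and the widest gaps between paired points belong to NOB1, RRP9 and NOP58. For 9 genes, NOP2 and PES1 among them, both points lie right of 0.

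The direction of the CHIR99021 difference was the same in the presence and absence of BMP4 for 25 of 34 nucleolar genes (73.5%), against 58.7% of all detected genes. For 23 of them (67.6%) it was higher in both, against 28.9% of detected genes, and for PES1 and PPAN it was lower in both. POLR1C and TSR1 were higher by at least 0.5 in both backgrounds (5.88%, against 1.12% of detected genes). The BMP4 difference kept its direction for 18 of 34 genes (52.9%), against 57.2% of detected genes, 9 of them higher and 9 lower. The departure from additivity is what the array with both treatments shows beyond the sum of the single differences. Its median was -0.04 over the list and 0.02 over all detected genes. It reached 0.5 upwards for NOB1, RRP9 and NOP58 (9.55% of all detected genes) and downwards for NOP16 (8.68% of all detected genes), at 0.89, 0.84, 0.74 and -0.59. With 1 array per group, such a departure includes the measurement error of all 4 arrays.

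Probes that the gene values did not use gave a similar picture for CHIR99021, though not for BMP4 on top of it. Of the 56 probes of these genes, 51 were detected, and 42 of them were higher with CHIR99021 than untreated and 44 with both treatments than with BMP4. Over all 18916 detected probes the shares were 49.8% and 50.1%. Among the 17 detected probes other than the brightest of their gene, 15 were higher with CHIR99021 (median 0.35) and 16 with both than with BMP4 (median 0.21). With BMP4 against untreated, 9 of these 17 were higher (49.8% of all detected probes). With both treatments against CHIR99021 only 4 of 17 were (48.9% of all detected probes), at a median of -0.09. The 17 probes belong to 11 genes and are not 17 separate checks. They come from the same RNA samples, so they check the probe and not the culture.

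In the wider machinery the medians with CHIR99021 were above 0 but lower than in the list. The gap was narrow for other polymerase I factors with both treatments against BMP4, at 0.25 against 0.27. Members and lists were chosen with earlier results of these data known, and the part of that choice in the gap was not tested. Of 98 measured genes for ribosome biogenesis outside the list, 69 were higher with CHIR99021 than untreated, at a median of 0.11, with 5 higher and 1 lower by at least 0.5 (6.01% and 8.1% of all detected genes), 1 of the 5 being WDR3, whose bound is 0.10. With both treatments against BMP4, 72 of 100 were higher, at a median of 0.13, and with BMP4 against untreated cells 48 of 99, at -0.01. Over all detected genes the shares that were higher in these 3 comparisons were 48.4%, 49.9% and 49.5%. Other small subunit factors had a median of 0.14 for CHIR99021 against untreated (32 of 44 higher; 0.11 with WDR3 at its bound) and other large subunit factors of 0.12 (30 of 41 higher). UTP14A, of the small subunit processome, was at 9.69 with both, 9.75 with CHIR99021, 9.06 with BMP4 and 9.09 untreated, and ZNF622, which acts on late pre-60S particles, at 10.14, 9.82, 9.50 and 9.51. WDR3, a processome scaffold, was detected only on the arrays with CHIR99021, at 5.35 with both and 5.03 with CHIR99021 alone, at least 1.31-fold higher with both than with BMP4. NLE1, a pre-60S factor, was at 6.11, 6.31, 5.56 and 5.92 with both, CHIR99021, BMP4 and untreated. DHX37, a helicase that frees the U3 snoRNA, was at 9.32 with both, 8.66 with CHIR99021, 8.84 with BMP4 and 8.24 untreated, and with 1.08 for both against untreated it alone passed 1 on the log2 scale. DDX49 and RRP7A, small subunit factors, had log2 differences of -0.40 and -0.38 for CHIR99021 against untreated, and PELP1 and FTSJ3, large subunit factors, of -0.35 and -0.23.

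The ribosomal proteins themselves, of which 65 were measured, had a median of 0.10 with CHIR99021 against untreated (41 higher), of 0.00 with both against BMP4 (32 higher), of 0.03 with BMP4 against untreated (38 higher) and of -0.13 with both against CHIR99021 (19 higher). Over all detected genes the shares that were higher were 48.4%, 49.9%, 49.5% and 49.7% in the same order. The shift of the ribosomal proteins with CHIR99021 thus did not repeat in the presence of BMP4. By the mean of the 2 CHIR99021 differences, RPL21 and RPL29 were highest, at 0.42 and 0.32, and RPS24 and RPS15 lowest, at -0.29 and -0.24. The values of RPL21 and RPL29 came from the comparison with untreated cells, at 0.81 and 0.59, and were 0.03 and 0.04 on top of BMP4. Against untreated cells alone, RPL8 had the lowest value of the ribosomal proteins, at -0.58. Many ribosomal protein genes have processed copies in the genome, and cross-hybridization of their probes was not tested.

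**Figure D5:**
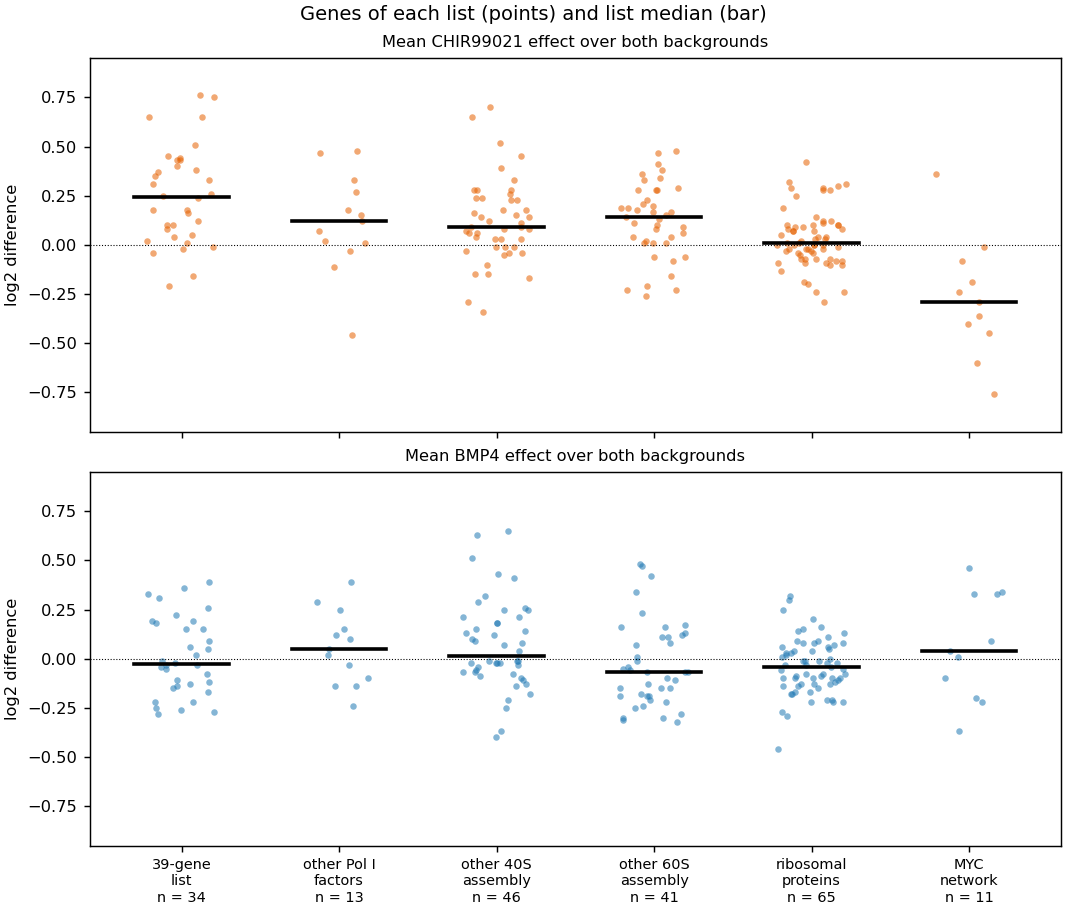
Each point is the mean of the 2 log2 differences of a detected gene for CHIR99021 (upper panel) or BMP4 (lower panel), for 6 gene lists, and the bar is the list median. In the upper panel the medians are 0.25 for the 34 nucleolar genes, 0.12, 0.09 and 0.14 for other polymerase I, small subunit and large subunit factors, 0.01 for ribosomal proteins and -0.29 for the MYC network, and in the lower panel all 6 lie between -0.07 and 0.05.

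MYC transcripts were lower with CHIR99021, unlike most of the nucleolar genes. MYC, whose protein binds E-boxes with MAX, was at 9.14 with both treatments, 9.19 with CHIR99021, 9.79 with BMP4 and 9.74 untreated, lower on both arrays with CHIR99021. MYCN, its close relative, was at 8.58, 7.90, 8.69 and 8.70 in the same order, with log2 differences of -0.80 for CHIR99021 against untreated but of -0.11 for both against BMP4. Of 10 measured genes of the MYC network, 1 was higher with CHIR99021 than untreated (48.4% of all detected genes). In the same comparison 5 were lower by at least 0.5 (8.1% of all detected genes), and the median was -0.46 (4 genes and -0.41 with MXD3 and MXI1 at their bounds). MAX, the obligate partner, was the 1 higher gene, at 6.19 with both, 5.90 with CHIR99021, 5.59 with BMP4 and 5.79 untreated. MXD3, a repressor of the same sites, was not detected with CHIR99021 alone, and there at least 1.38-fold lower than in untreated cells. Since the network holds such repressors beside MYC, its median is no measure of MYC activity. With both treatments against BMP4 the median of the network was -0.12, with 3 of 10 genes higher (49.9% of all detected genes). With BMP4 against untreated it was -0.11, with 3 of 11 higher (49.5% of all detected genes). The arrays measured RNA, and MYC protein was not analysed here.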

How the data were processed

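RNA of 4 HuES6 samples was hybridized to 1 array each, and groups were taken from the treatment in the labels. The authors deposited a linear intensity for each of 47321 probes per array without normalization, with a detection p-value per probe from the scanner software GenomeStudio (version not given in the sources used here). Normalized intensity values were deposited too, for which the study's methods name background subtraction and cubic spline normalization, and served as an alternative. Here, limma 3.58.1 (R 4.3.3) removed background from the raw values by normexp, guided by the detection p-values, with an offset of 16, followed by quantile normalization and log2. The offset draws differences of dim probes towards 0. Raw medians were 88.7 to 93.6, and the number of arrays limits the precision.

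Probes were named through a platform annotation updated by Entrez ID to RefSeq (GRCh38.p14), with a match for 30073 of the 30120 probes it lists. Of these, 30112 have 1 symbol and 8 have several and were left out, and 17201 further probes are unnamed. The brightest probe by mean stood for its gene, and levels of different probes were not compared. A gene entered a comparison if detected (p below 0.01) on at least 1 of its arrays, and was called at a log2 difference of at least 0.5 or 1. Values on every array are given for genes past 0.5 under a single treatment with the same sign in the other background, and for the 3 highest and 3 lowest by mean effect of each treatment. Further genes were picked after their values were seen. The members and lists were chosen with earlier results of these data known. Comparisons that share an array are given side by side only. Counting steps were tested on simulated data. Alternatives were the offset, no background correction, median scaling, cyclic loess, the authors' values, the mean over detected probes and the detection filter. Promoter windows came from RefSeq, and 7 genes (NOLC1, NOP58, RRP12, BOP1, RRS1, RRP1B and DDX18) had none in the table.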

Additional observations from a re-analysis of the deposited data

Results flagged for a closer look

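The CHIR99021 difference changed sign with BMP4 present in 9 of 34 nucleolar genes (41.1% of all detected genes), and the BMP4 difference with CHIR99021 present in 16 of 34 (42.6% of all detected genes). In 4 of these genes the departure from additivity also reached 0.5, in 3 upwards and in 1 downwards, as it did in 9.55% and 8.68% of all detected genes. Without background correction RRP9 and NOP16 fell short of that size, at 0.42 and -0.47. As the mean over detected probes, the departure of NOP16 was -0.44. There was 1 array per group, and none of these differences was tested. NOB1, the nuclease of the final 18S cut, departed most from additivity, by 0.89. Its CHIR99021 difference was 0.47 on top of BMP4 and -0.42 without it, and its BMP4 difference was 0.40 on top of CHIR99021 and -0.50 without it. RRP9, which recognises the U3 snoRNA, departed by 0.84, with CHIR99021 differences of 0.40 with BMP4 and -0.44 without, and BMP4 differences of 0.14 with CHIR99021 and -0.71 without. NOP58, a box C/D core protein, departed by 0.74, with CHIR99021 differences of 0.41 with BMP4 and -0.33 without, and BMP4 differences of 0.56 with CHIR99021 and -0.18 without. NOP16 departed by -0.59. Its BMP4 difference was -0.25 with CHIR99021 and 0.34 without, while its second probe gave -0.37 and -0.08. NOB1, RRP9 and NOP58 each have 1 probe, so no second probe bears on them.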

How the results depend on the processing

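The median difference of the nucleolar genes lay between 0.19 and 0.32 for CHIR99021 against untreated, between 0.19 and 0.29 for both treatments against BMP4 and between 0.17 and 0.25 for both against untreated under all alternatives run. The count of genes highest on an array with CHIR99021 was 29 throughout. For BMP4 against untreated the median lay between -0.11 and 0.02 and for both against CHIR99021 between -0.14 and 0.01, with the lowest values under median scaling, which also gave 24 genes with the same sign of the BMP4 difference in both backgrounds, in place of 18. Of 157 alternative values for the list, 6 were counts that moved by over 1.5 times. The number of genes past 0.5 for both treatments against BMP4 was 3 with an offset of 50 and 2 without background correction, in place of 5. For BMP4 against untreated it was 0 without background correction and 2 with median scaling, in place of 1, and the number above 0 was 10 with median scaling, in place of 18. For both against CHIR99021 the number past 0.5 was 2 with median scaling, in place of 1, both of them lower. Median scaling moved the median of all detected genes to -0.12 for BMP4 against untreated and to -0.11 for both against untreated and against CHIR99021, and 18, 29 and 15 nucleolar genes lay above these medians. Single genes were followed only where the main difference was at least 0.5 in size. Genes that rose past 0.5 are therefore not among them. The count of genes past 0.5 for CHIR99021 against untreated ran from 4 to 7 under the alternatives, in place of 5. A change of the detection filter alone leaves a single gene's difference as it was. Of 176 alternative values followed, 161 stayed past 0.5, 15 fell short of it and none changed sign. MYBBP1A was among those, at 0.42 with an offset of 50 and at 0.30 without background correction, as were POLR1C (0.49 and 0.45), TSR1 (0.41 without background correction) and RRP12 (0.47 and 0.39) for both treatments against BMP4. The comparison with genes of the list's middle intensity range was chosen after seeing the data and left the medians at 0.29 for CHIR99021 and 0.01 for BMP4. No paired analysis was possible because each group holds 1 array and the labels carry no replicate numbers. With UTP20 at its bound the median for both treatments against untreated was 0.22 in place of 0.23. With 1 array per group, no single gene's difference has an error estimate, and probes near background have only bounds.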
